A study of Mus musculus with 26 samples.

Results

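The change of the wild type (WT) mouse striatum between 6 and 12 months of age was described across all genes on 9 of the 26 arrays of the series. The members were the Wild Type arrays whose titles carry age 6 (4 arrays, from 2 females and 2 males) and age 12 (5 arrays, from 2 females and 3 males). The titles give these ages in weeks, whereas the study gives the same numbers in months, and months are used here. The mice had a C57BL6/J background, came from an in-house colony of the YAC128 line and were housed in littermate groups of 1 sex, and neither the labels nor the methods name a treatment. Arrays are named below by age, sex and the replicate number of the title (6-month M2, for example). The titles call the replicates biological, which is taken here as 1 mouse for each array. The 9 YAC128 arrays of the same ages, from mice that carry an expanded human HTT gene on a yeast artificial chromosome, and the 3 WT arrays of 18 months were used only where stated. The YAC128 arrays were from 1 female and 3 males at 6 months and from 3 females and 2 males at 12 months. The 18-month WT arrays were from 1 female and 2 males.

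The striatum is the input nucleus of the basal ganglia. Most of its neurons are medium spiny projection neurons, which use GABA, receive glutamate from cortex and thalamus, and fall into a direct pathway class with the dopamine receptor Drd1 and an indirect pathway class with Drd2. Their spines, dopamine responses and transcription of activity genes follow the state of the animal, and the striatum, like other tissues, has a daily rhythm of clock genes.

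The labelled sex matched Xist, the RNA that silences one X chromosome in females, on all 9 arrays, with log2 values of 12.15 or more in females and 6.57 or less in males. The striatal label was borne out by its defining markers, since Ppp1r1b (DARPP-32, the dopamine-regulated phosphatase inhibitor) lay between 11.62 and 12.24, Drd2 between 11.43 and 12.09, and Penk, the enkephalin precursor of indirect pathway neurons, between 13.10 and 13.38. The 6-month M2 stood apart: the first principal component of the 9 arrays, with 29.99% of the variance, gave it a score of 45.4 against -25.5 to 4.85 in the other 8. Its value for Slc17a7, the vesicular glutamate transporter of cortical neurons, was 11.52, against 7.99 to 9.44 in the other 6-month arrays and 9.05 to 11.07 at 12 months. The mean over 16 cortical projection neuron markers was 9.53 in the 6-month M2 and 8.45 to 9.29 in the other 8 arrays, and that over 15 choroid plexus and ependymal markers was 7.89 against 7.14 to 7.66. The mean over 28 medium spiny neuron markers was lowest in the same array (10.59, against 10.86 to 11.16). With all 9 arrays 0 of 16 cortical and 0 of 15 choroid plexus genes had an unadjusted limma p under 0.05 for age. Without the 6-month M2, 2 genes of each list were higher at 12 months, the list medians were 0.16 and 0.18 on the log2 scale, and Slc17a7 had a difference of 1.18 (p 0.025). Results below are given without this array where that changes the reading. The 6-month F1 lay at the other end of the component (-25.5, the next lowest -16.0). It had the highest mean over 15 markers of thalamus, septum and hypothalamus (8.17, other 6-month arrays 7.51 to 7.76, 12-month arrays 7.74 to 8.02). Among these markers Calb2, the calcium buffer calretinin, was at 8.96 in this array and at 6.81 to 7.27 in the other 6-month arrays, and Slc17a6, the glutamate transporter of thalamic neurons, at 8.24 against 6.03 to 7.26. Without the 6-month F1, 4 genes of this list were higher at 12 months. The part of tissue makeup in the results was not tested, and in bulk tissue fewer cells of a type and less RNA per cell cannot be told apart.

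No probeset passed at 12 against 6 months. Of 34760 probesets, 0 had a Benjamini-Hochberg adjusted p under 0.05 in limma, and 1532 (4.41%) had an unadjusted p under 0.05, where an even spread of p-values gives 1738. The smallest adjusted p was 0.0647, for a probeset with no gene symbol that was 0.79 higher at 12 months on the log2 scale, and the smallest among probesets with 1 gene symbol was 0.789. The word "higher" or "lower" below, where a count is given, stands for this unadjusted threshold, and none of these genes passed after adjustment. The study used the same threshold and reports a larger count of WT probesets between these ages than the 1532 found here. The reason for that difference was not tested.

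Among the 1532 probesets, 1052 (3.03%) were higher and 480 (1.38%) lower at 12 months. This lean towards higher values depended on the scaling of the arrays. The share of calls that were higher was 68.7% in the values as deposited, 57.9% (810 higher, 590 lower) when each array was centred on its median, and 47.8% (833 higher, 910 lower) after quantile normalization. The median log2 difference over all probesets was 0.018 as deposited, 0.0056 when centred and -0.0040 after quantile normalization. Single arrays also weighed on the counts, which were 2384 without the 6-month F1, while 881 were lower without the 6-month M2. The adjusted count was 1 without the 6-month M2 or without the 12-month M2.

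The calls were unevenly spread over the kinds of probeset. Probesets with 1 gene symbol gave 574 calls of 21640 (2.65%; 1.64% higher and 1.02% lower), fewer than an even spread of p-values would. Those with several symbols gave 118 of 1321 (8.93%), of which 105 were higher (7.95%) and 13 lower (0.984%), and those with no symbol gave 840 of 11799 (7.12%), of which 593 were higher (5.03%) and 247 lower (2.09%). Taking each of 19937 gene symbols by its probeset of highest mean, 491 genes were called (2.46%), with 305 higher (1.53%) and 186 lower (0.933%), and these shares are the background for every gene list below. All 5 arrays of 12 months lay above all 4 of 6 months in 158 genes (0.792%) and below them in 84 (0.421%), and the ages did not overlap in 1.57% of all probesets (1.11% above, 0.457% below).

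**Figure D1:**
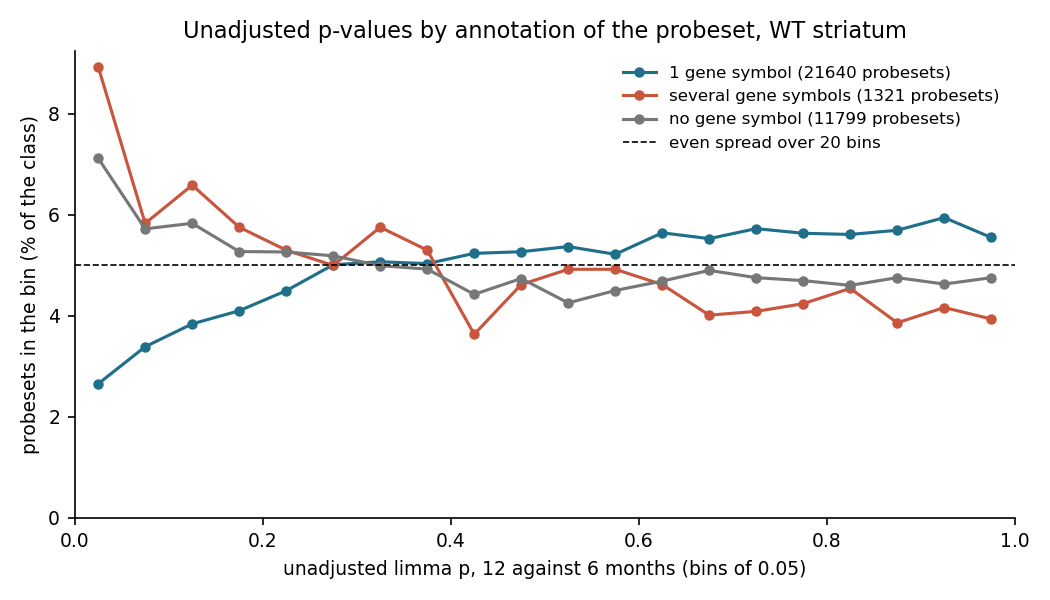
Share of probesets (y axis, percent of the class) in 20 bins of the unadjusted limma p for 12 against 6 months (x axis), by whether the probeset has 1, several or no gene symbol, with the even spread as a dashed line. The first bin holds 2.65% of probesets with 1 symbol, 8.93% of those with several and 7.12% of those with none.

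The differences were small. Over genes the median size of the log2 difference was 0.05 and the median standard error (SE) 0.08, and differences ran from -0.11 at the 5th to 0.14 at the 95th percentile. A log2 difference of at least 0.5 was found in 14 genes, and 5 of these were called.

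Several genes of the immediate early response were lower at 12 months. These genes are transcribed within minutes of neuronal activity and encode mainly transcription factors and synaptic proteins. Of 25 genes on the list, all measured, 6 were lower (24.0%, where 0.933% of all genes were) and 0 higher. The median log2 difference was -0.19, against 0.01 over all genes, and 21 of the 25 differences were below 0. The 6 were Fos, Btg2, Npas4, Egr2, Arc and Fosb.

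Fos makes one of the proteins that form AP-1. Its log2 values were 7.81, 7.72, 7.61 and 7.52 in the 6-month F1, F2, M1 and M2, and 7.17, 7.55, 7.25, 7.18 and 7.28 in the 12-month F1, F2, M1, M2 and M3. The ages overlapped by 1 array, the 12-month F2, which lay just above the 6-month M2. The log2 difference was -0.38 (SE 0.0932, unadjusted limma p 0.00224), and it was -0.42 without the 6-month M2.

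Npas4, a transcription factor that neurons switch on with calcium entry, had the largest difference of the list. Its values were 9.11, 9.24, 9.25 and 8.55 at 6 months and 7.88, 8.43, 8.15, 7.75 and 9.17 at 12 months, in the same order of animals. The 12-month M3 stood with the 6-month arrays, and the other 4 lay below all of them. The log2 difference was -0.76 (SE 0.27), or 1.70-fold lower.

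Arc encodes a protein that regulates AMPA receptors at synapses. Its values were 9.63, 9.81, 9.87 and 9.25 at 6 months, and 8.83, 9.41, 9.27, 9.04 and 9.53 at 12 months. The 6-month M2 was the lowest of its age, and the log2 difference of -0.42 (SE 0.164) became -0.55 without it. The call was lost when the 6-month F2, the 6-month M1, the 12-month F1 or the 12-month M2 was left out, with a p of up to 0.0812.

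Egr2, a zinc finger transcription factor, was at 8.09, 8.48, 8.47 and 7.73 at 6 months, and at 7.25, 7.65, 7.96, 7.82 and 7.83 at 12 months. The log2 difference was -0.49 (SE 0.18), and -0.65 without the 6-month M2. It was lost without the 6-month F2 or the 6-month M1 (p up to 0.068). Btg2, an antiproliferative gene induced by activity, had a log2 difference of -0.30 (SE 0.0825), which was called with any 1 array left out. Fosb, another AP-1 subunit, had a difference of -0.20 (SE 0.0797), and was lost without the 6-month F2 or M1 or without either 12-month female.

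Further members had differences of similar size that did not pass. The nuclear receptor gene Nr4a1 was at 10.09, 10.38, 10.45 and 9.20 at 6 months and at 8.54, 9.55, 10.01, 9.47 and 9.52 at 12 months, a log2 difference of -0.61 (SE 0.311, unadjusted limma p 0.0771). Without the 6-month M2 it was -0.89 (p 0.00948). Dusp1, a phosphatase that acts on MAP kinases, had -0.28 (SE 0.193), and -0.51 without the same array. The 6-month M2 had the lowest value of its age for Fos, Npas4, Arc, Egr2, Btg2, Nr4a1 and Dusp1. The list's count of lower genes was 10 without the 6-month M2, 11 without the 12-month M1, and 3 without the 6-month F2 or the 6-month M1.

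**Figure D2:**
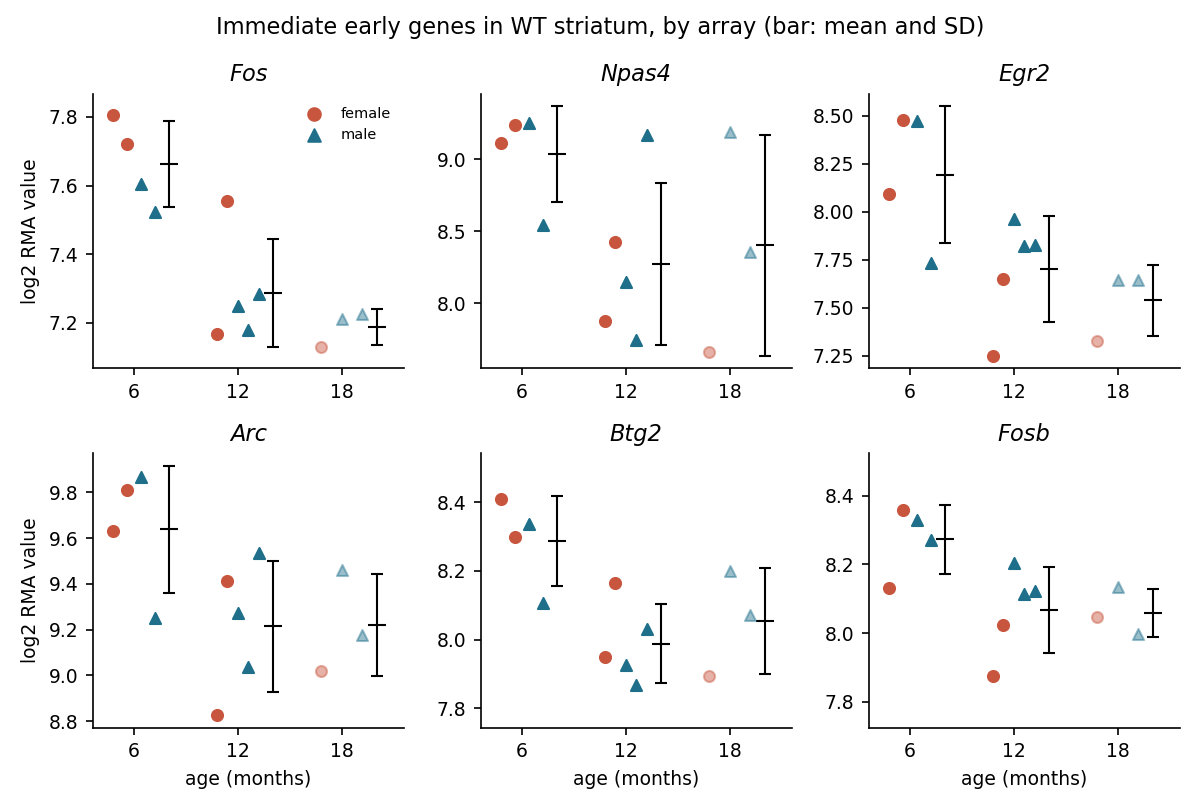
Log2 RMA values (y axis) of 6 immediate early genes in each WT array at 6, 12 and 18 months (x axis), females as circles, males as triangles, and the mean with SD as a bar beside each age. The 18-month arrays, in paler colour, entered no test. Fos lies at 7.52 to 7.81 at 6 months and 7.17 to 7.55 at 12 months.

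The promoter windows of Fos and Npas4, the called genes with the smallest p and the largest difference, are shown because both hold the letters TGACG, the core of the site that the activity-dependent factor CREB binds. Both come from RefSeq on GRCm38.p6 and run from 250 bases before to 50 bases after the gene start. That of Fos is chr12:85473640-85473939 on the plus strand, and that of Npas4 is chr19:4989922-4990221 on the minus strand. Capitals mark TGACG or its reverse complement.
Fos: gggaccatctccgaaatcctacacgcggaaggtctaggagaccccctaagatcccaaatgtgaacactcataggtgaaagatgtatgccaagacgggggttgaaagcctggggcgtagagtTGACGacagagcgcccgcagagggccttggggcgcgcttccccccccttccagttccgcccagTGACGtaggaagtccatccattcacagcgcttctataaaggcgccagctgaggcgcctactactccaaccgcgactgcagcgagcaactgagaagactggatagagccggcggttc
Npas4: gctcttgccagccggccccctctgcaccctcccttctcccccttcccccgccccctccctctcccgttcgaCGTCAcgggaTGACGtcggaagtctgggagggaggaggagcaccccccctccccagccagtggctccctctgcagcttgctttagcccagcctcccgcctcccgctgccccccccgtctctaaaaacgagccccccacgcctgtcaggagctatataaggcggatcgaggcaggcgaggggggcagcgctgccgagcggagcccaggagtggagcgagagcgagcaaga
Fos holds 2 matches, which start 129 and 66 bases before the gene start, and Npas4 holds 2, at 179 and 169 bases before it. TGACG on either strand was in 15 of the 20 list members that had a window (75.0%), in 23.05% of 27025 genes with a window and in 20.8% of all 32851 windows. The longer AP-1 letters TGACTCA were in 0 of the 20. A match is a run of letters and shows no binding.

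Several genes of the circadian clock were higher at 12 months. In this loop the activators Clock and Arntl drive their own repressors from E-box sites, the nuclear receptors Nr1d1 and Nr1d2 repress Arntl, and output factors such as Dbp carry the rhythm to other genes. Of 24 genes on the list 20 were measured, and 6 were higher (30%, where 1.53% of all genes were) and 0 lower. The median log2 difference was 0.13. The 6 were Ciart, Nr1d1, Dbp, Bhlhe41, Bhlhe40 and Per3, all of them repressors or output genes of the loop.

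Ciart encodes a repressor of the Clock and Arntl pair and was measured by 2 probesets. On the first its values were 8.86, 8.89, 9.16 and 8.56 in the 6-month F1, F2, M1 and M2, and 9.25, 9.17, 9.55, 9.65 and 9.69 in the 12-month F1, F2, M1, M2 and M3. All 12-month arrays lay above all 6-month arrays, with the 12-month males highest. The log2 difference was 0.59 (SE 0.141, unadjusted limma p 0.00172), or 1.51-fold. The second probeset gave 0.50 (SE 0.136), with the 12-month F1 at 8.39 below the 6-month M1 at 8.41. Where the 2 probesets lie was not looked up, so which transcript each reads is uncertain.

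Nr1d1, the nuclear receptor REV-ERB alpha, was at 10.85, 10.87, 10.93 and 10.79 at 6 months and at 11.00, 10.98, 11.21, 11.26 and 11.29 at 12 months. The ages did not overlap, and again the 3 males of 12 months were highest. The log2 difference was 0.29 (SE 0.0802). Dbp, an output transcription factor, had values of 9.57 to 9.90 at 6 months and 9.99 to 10.28 at 12 months, a difference of 0.31 (SE 0.0914).

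Bhlhe41, a repressor that competes for E-boxes, was at 8.66, 8.44, 8.76 and 7.97 at 6 months and at 8.85, 8.80, 8.89, 9.11 and 9.03 at 12 months. The 6-month M2 was far below the rest of its age, and the log2 difference of 0.48 (SE 0.147) became 0.31 without it and still did not overlap. Its relative Bhlhe40 had 0.37 (SE 0.145) and the period gene Per3 0.16 (SE 0.0613). Both had overlapping ages, and each was lost when any of 4 arrays was left out: the 6-month F2, 12-month M2 and 12-month M3 for both, with the 6-month M1 for Bhlhe40 and the 6-month F1 for Per3.

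The activators did not share the direction. Arntl (BMAL1) was at 8.76, 8.97, 8.69 and 8.54 at 6 months and at 8.38, 8.38, 8.63, 8.71 and 8.57 at 12 months. Its log2 difference was -0.21 (SE 0.102, unadjusted limma p 0.0688). Without the 6-month M2 the list held 2 lower genes, Arntl (-0.27, p 0.0224) and Cry1 (-0.14, p 0.0346), beside 6 higher ones, and its median was 0.07. Clock had a difference of 0.01, Per1 of 0.05, Cry1 of -0.09 and Cry2 of 0.16, none of them called. The animals were killed at the same point of the light phase, as the study states, and the clock time of each animal was not analysed here.

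The mean over the 20 clock genes was 9.18, 9.17, 9.22 and 9.04 in the 6-month arrays and 9.15, 9.16, 9.34, 9.41 and 9.35 in the 12-month arrays. The 2 females of 12 months lay within the range of the 6-month arrays, and the 3 males of 12 months above it. In limma's test of age by sex, Arntl had a change of -0.49 (SE 0.103) in females and 0.02 (SE 0.0936) in males, a difference with an unadjusted p of 0.00616 and an adjusted p of 0.355. For the second Ciart probeset the changes were 0.20 in females and 0.70 in males (adjusted p 0.355), and for Nr1d1 0.13 and 0.39 (adjusted p 0.361), so none of these differences passed. The 6-month M2, 1 of the 2 males of 6 months, had the lowest 6-month value on both Ciart probesets (8.56 and 8.11) and for Nr1d1.

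**Figure D3:**
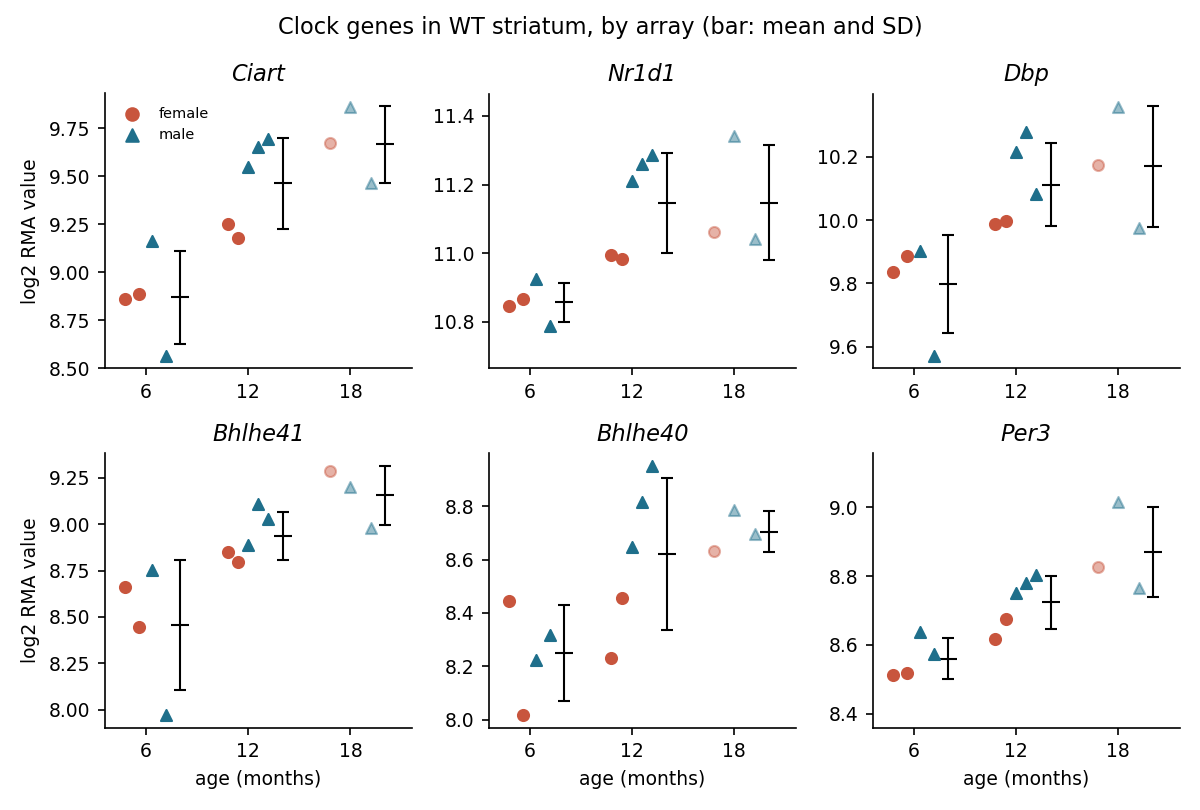
Log2 RMA values (y axis) of 6 clock genes in each WT array at 6, 12 and 18 months (x axis), females as circles, males as triangles, with the mean and SD as a bar beside each age. Ciart is drawn from its first probeset. The 12-month males are at 9.55 to 9.69 for Ciart and 11.21 to 11.29 for Nr1d1, above the 12-month females.

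The promoter windows of Ciart and Bhlhe41, the called clock genes of largest difference, are shown for their E-boxes, the letters CACGTG to which the Clock and Arntl pair binds and which read the same on both strands. They are RefSeq windows of the same length on GRCm38.p6, chr3:95882179-95882478 on the minus strand for Ciart and chr6:145865371-145865670 on the minus strand for Bhlhe41. Capitals mark CACGTG.
Ciart: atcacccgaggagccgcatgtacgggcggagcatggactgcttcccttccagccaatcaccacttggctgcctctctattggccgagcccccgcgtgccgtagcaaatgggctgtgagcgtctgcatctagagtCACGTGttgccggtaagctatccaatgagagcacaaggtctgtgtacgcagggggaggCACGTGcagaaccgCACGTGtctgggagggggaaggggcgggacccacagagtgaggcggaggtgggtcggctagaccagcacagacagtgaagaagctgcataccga
Bhlhe41: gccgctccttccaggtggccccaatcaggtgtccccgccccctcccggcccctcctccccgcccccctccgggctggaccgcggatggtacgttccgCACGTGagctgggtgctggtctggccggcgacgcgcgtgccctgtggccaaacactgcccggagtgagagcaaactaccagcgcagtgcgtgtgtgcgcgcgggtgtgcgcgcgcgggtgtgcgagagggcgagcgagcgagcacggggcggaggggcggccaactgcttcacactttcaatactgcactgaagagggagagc
Ciart holds 3 E-boxes, which start 116, 58 and 44 bases before the gene start, and Bhlhe41 holds 1, at 153 bases before it. At least 1 E-box was in 7.15% of 32851 windows, and 3 or more in 0.0883%. Of the clock genes, 17 had a window and 5 of these held an E-box (29.4%), against 8.09% of 27025 genes. The letters AGGTCA, which nuclear receptors such as Nr1d1 bind, were also in 5 of the 17, against 18.1% of 27025 genes. Neither the E-box nor TGACG was confined to 1 list. The E-box was in 5 of the 20 immediate early genes with a window (25.0%), and TGACG in 6 of the 17 clock genes (35.3%). The letters GGGCGG (GC box) were in 15 of the 17 clock genes (88.2%) and 17 of the 20 immediate early genes (85.0%), against 38.2% of 27025 genes.

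Of 300 microRNA genes 19 were higher (6.33%) and 3 lower (1.00%). With 1 array left out the list gave 12 (without the 6-month F2) to 31 (without the 6-month M2) higher and 1 to 12 lower, the latter without the 6-month F1. Of the higher ones, 9 lay in the imprinted interval between the long noncoding RNA genes Meg3 and Mirg, where 40 microRNA genes were measured (22.5%) and 0 were lower. Outside it 10 of 260 were higher (3.85%), a count that was 25 without the 6-month M2 and 6 without the 6-month F2, while 11 were lower without the 6-month F1. This interval was singled out after its values were seen. Its long noncoding RNA and microRNA genes are transcribed from the maternal chromosome, and these microRNAs act mostly in brain, where some restrain synaptic proteins and dendrite growth. A probeset of this array can read a precursor or a longer transcript, so its value is not a level of the mature microRNA.

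Mir411, the called member of smallest p, was at 7.33, 7.29, 7.04 and 6.89 at 6 months and at 7.42, 7.53, 7.47, 7.56 and 7.73 at 12 months. All 12-month arrays lay above all 6-month arrays. The log2 difference was 0.40 (SE 0.102, unadjusted limma p 0.00262). Mir541 followed with 6.44, 6.26, 6.39 and 5.97 at 6 months and 6.63, 6.72, 6.57, 6.55 and 6.90 at 12 months, a difference of 0.41 (SE 0.109). For both, the lowest value of all was that of the 6-month M2, and without it the differences were 0.32 and 0.31.

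Mir539 (0.27, SE 0.0729) and Mir329 (0.21, SE 0.0583) also had no overlap between the ages. Mir539 lay between 7.99 and 8.25 at 6 months and between 8.27 and 8.52 at 12 months, and Mir329 between 8.93 and 9.07 and between 9.13 and 9.27. Mir382, Mir300, Mir154, Mir434 and Mir134 were called with overlapping values and differences of 0.17 to 0.30. Of these 5, Mir382 kept its call with any 1 array left out. The call of Mir134 was lost with any of 6 arrays, those of Mir154 and Mir434 with any of 5, and that of Mir300 without the 6-month F2. Mir134 (p 0.0995), Mir154 (p 0.0905) and Mir434 (p 0.052) were not called without the 6-month M2. The long noncoding RNA genes of the interval were not called. Meg3 had a log2 difference of 0.04 (95% interval -0.09 to 0.16) and Rian 0.10 (-0.20 to 0.41). The count over the interval was 7 when arrays were centred on their median or quantile normalized, 14 without the 6-month F1, and 6 without the 6-month F2, the 6-month M2 or the 12-month M3.

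The mature sequences held for the 4 microRNA genes whose ages did not overlap are given as RNA from RefSeq, with the seed, bases 2 to 8, in capitals. For Mir539 the source held the 5 prime arm only. The 3 prime arm of miR-379, a neighbour of Mir411, is shown with them because its seed is that of miR-411-3p. Mir411 lies on chromosome 12 of GRCm38.p6, with its 5 prime mature arm at chr12:109710190-109710210 on the plus strand.
miR-411-5p: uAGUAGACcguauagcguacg
miR-411-3p: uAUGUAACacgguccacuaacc
miR-379-3p: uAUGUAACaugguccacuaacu
miR-541-5p: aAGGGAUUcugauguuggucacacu
miR-541-3p: uGGCGAACacagaauccauacu
miR-539-5p: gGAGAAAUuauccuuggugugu
miR-329-5p: aGAGGUUUucugggucucuguu
miR-329-3p: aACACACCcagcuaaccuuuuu
Seeds were compared only among the mature sequences held for the 40 measured microRNA genes, of 60 in the interval. Among these no other one had the seed of miR-411-5p, of either miR-541 arm, of miR-539-5p or of either miR-329 arm. Mir379 itself had a log2 difference of 0.01 and was not called.

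**Figure D4:**
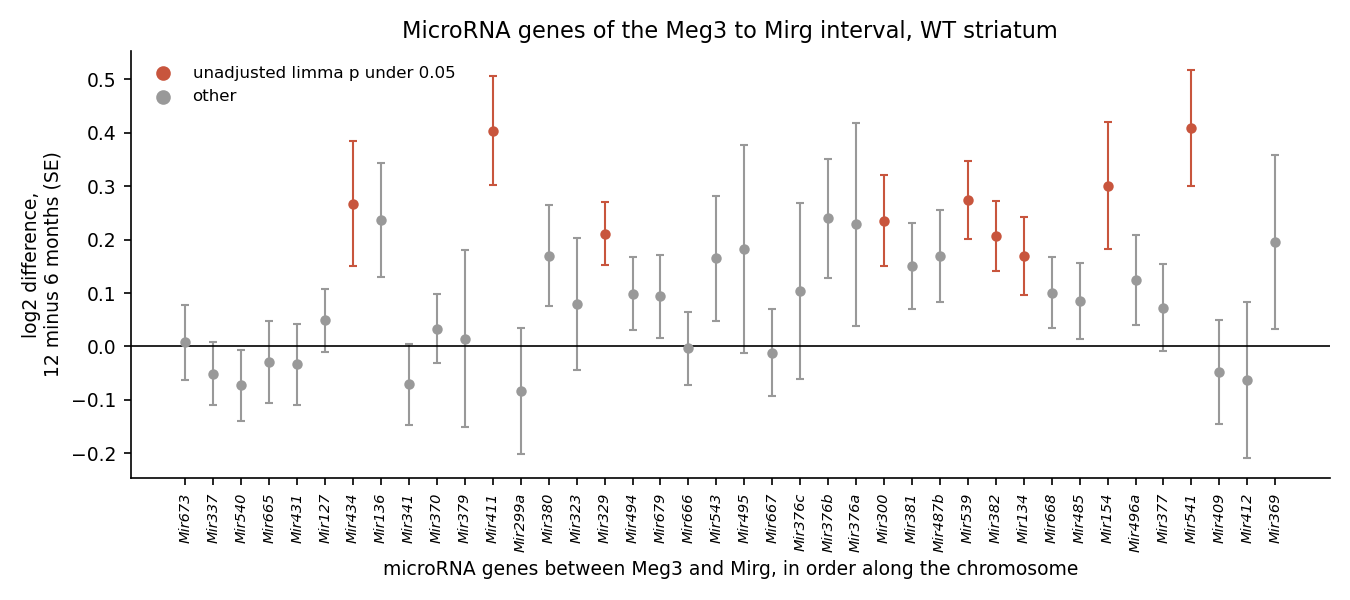
Log2 difference, 12 minus 6 months, with its SE (y axis) of the 40 measured microRNA genes between Meg3 and Mirg in chromosomal order (x axis), with the 9 genes at an unadjusted limma p under 0.05 in red. Differences run up to 0.41 for Mir541, and 30 of the 40 are above 0.

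Clustered protocadherins, cell surface proteins that give single neurons an identity for self recognition, had 7 of 22 measured genes higher (31.8%) and 0 lower, with a median log2 difference of 0.16. Pcdhb7 was at 7.14, 6.96, 7.18 and 7.05 at 6 months and at 7.35, 7.46, 7.31, 7.40 and 7.31 at 12 months. Its ages did not overlap, and the log2 difference was 0.28 (SE 0.0646, unadjusted limma p 0.00132). Pcdhb15 had 8.376 to 8.504 at 6 months and 8.55 to 8.80 at 12 months, a difference of 0.22 (SE 0.0647), and Pcdhb12 a difference of 0.30 (SE 0.0871) with the 6-month F1 within the 12-month range. The genes of this family are alike in sequence, and how far probes of one read another is unknown here. The count was less stable than the median: 3 genes were higher when arrays were centred or quantile normalized, 3 without the 6-month M2, the 12-month F1 or the 12-month F2, and 4 without the 12-month M2 or M3, while the median stayed between 0.10 and 0.20 with any 1 array left out.

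Heat shock and chaperone genes had 3 of 32 measured members lower (9.38%) and 1 higher. Ahsa1, which stimulates the ATPase of HSP90, had the smallest p of all lower genes. Its values were 9.54, 9.42, 9.35 and 9.33 in the 6-month arrays and 9.01, 8.97, 9.09, 9.19 and 9.13 in the 12-month arrays. The ages did not overlap, and the log2 difference was -0.33 (SE 0.0691, unadjusted limma p 0.00071, adjusted p 0.789). Stip1, which links HSP70 to HSP90, had 10.41 to 10.59 at 6 months and 10.26 to 10.38 at 12 months (-0.14, SE 0.0588), and Hsph1, a nucleotide exchange factor of HSP70, had -0.15 (SE 0.0677). Leaving out any of 5 arrays ended the call of Stip1, and any of 6 that of Hsph1. The count of lower members was 1 without the 6-month F1 or the 12-month F1, F2 or M3, and 5 after quantile normalization. The higher member was Hsf2, a heat shock transcription factor, with 0.23 (SE 0.0761). Hsp90aa1, a stress-inducible HSP90 gene and list member looked up after these values were seen, had a log2 difference of -0.04 on its probeset of highest mean.

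Cirbp, an RNA-binding protein induced by mild cold, had values of 9.10, 9.01, 9.04 and 8.96 at 6 months, and of 9.34, 9.16, 9.32, 9.34 and 9.31 at 12 months. All 12-month arrays lay above all 6-month arrays, with a log2 difference of 0.27 (SE 0.0607, unadjusted limma p 0.00132). Rbm3, its cold-induced relative, was looked up after Cirbp was seen and had differences of 0.34 (SE 0.128) and 0.19 (SE 0.107) on 2 probesets. The first was called, and the call was lost without the 6-month F1, F2 or M2 or the 12-month M3. The second was not called (unadjusted limma p 0.11). Where the 2 probesets lie was not looked up, so which transcript each reads is uncertain.

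Translation factors and ribosomal proteins had small differences. The study names translation as a category close to significance among genes changed between 6 and 12 months in WT. Its set test was not repeated here. Differences were above 0 in 47 of 64 translation factors and 42 of 62 cytosolic ribosomal proteins, against 57.6% of all genes. Of 64 translation initiation and elongation factors and their relatives, 4 were higher (6.25%) and 0 lower, and the median log2 difference was 0.04. Eif5a, which helps ribosomes past difficult peptide bonds, had 10.61 to 10.76 at 6 months and 10.79 to 11.04 at 12 months (0.21, SE 0.069), and Gspt1, a termination factor, had 9.57 to 9.67 and 9.70 to 9.84 (0.14, SE 0.058). Leaving out any of 5 arrays ended the call of Gspt1, the 6-month M2 among them (unadjusted limma p 0.0685). Gspt1 was also not called when arrays were centred on their median (unadjusted limma p 0.0949). The count was 2 without the 6-month F2, the 6-month M2, the 12-month M2 or the 12-month M3, and the median without the 6-month M2 was 0.00. Of 62 cytosolic ribosomal proteins 2 were higher (3.23%), Rpl37a (0.26, SE 0.0858) and Rps29 (0.40, SE 0.151), with a median of 0.05. The median was 0.02 without the 6-month M2, whose mean over the list was 9.78, against 9.92 to 9.95 in the other 6-month arrays and 9.93 to 9.96 at 12 months. The count was 5 without the 6-month F1 and 1 without the 12-month F2. Rps29 was at 9.57 in the 6-month M2 and at 10.12 to 10.37 in the other 6-month arrays, its difference without that array was 0.24, and the call was lost without the 12-month F2. One of 4 probesets named for Rpl10a also had a small p (0.38, SE 0.0902), but 3 others of the same gene did not, and ribosomal protein genes have many near-identical copies, so which transcript it reads is uncertain, as it is for the called probesets of Eif5a (1 of 2) and Rps29 (1 of 4). In the other direction, 2 of 10 probesets named for Rpl23a were lower, by -0.34 (SE 0.103, unadjusted limma p 0.00841) and -0.46 (SE 0.153, p 0.0126), each without overlap of the ages and called with any 1 array left out, while the remaining 8 were not called. Mitochondrial ribosomal proteins had 1 of 77 higher and 2 lower, and genes of oxidative phosphorylation 1 of 90 in each direction. These lists had 4 and 5 lower and 0 higher without the 6-month M2.

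Genes of striatal neurons differed little. Of 28 medium spiny neuron markers 1 was higher, Oprk1, the kappa opioid receptor, and 0 were lower. Without the 6-month M2 the median of this list was -0.06, with 1 gene higher and 1 lower. Oprk1 was at 8.58, 8.59, 8.59 and 8.39 at 6 months and at 8.66, 8.86, 8.66, 8.89 and 8.88 at 12 months, which did not overlap (0.25, SE 0.0769). Pdyn, whose peptide product dynorphin binds that receptor, was the called gene among 8 direct pathway markers. It was at 8.58, 8.73, 8.68 and 8.20 at 6 months and 8.68, 8.76, 9.04, 9.09 and 8.79 at 12 months. Its log2 difference of 0.32 (SE 0.126) was 0.21 without the 6-month M2 (p 0.0778), and the call was also lost without the 12-month M1 or M2. The remaining direct and indirect pathway markers were not called. The 95% interval of the log2 difference was -0.21 to 0.27 for Drd1, -0.38 to 0.19 for Drd2, -0.14 to 0.17 for Penk, -0.11 to 0.35 for Tac1 and -0.22 to 0.32 for Ppp1r1b. Drd2 had -0.23 without the 6-month M2 (unadjusted limma p 0.0309). Endogenous Htt, the gene whose human counterpart YAC128 mice carry, had an interval of -0.05 to 0.22.

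Synaptic genes had 1 of 51 higher, Syn2, a synaptic vesicle protein (0.18, SE 0.0726), and it was lost without the 6-month F2 or M1 or the 12-month F2 or M3. Of 73 voltage-gated channel genes and of 27 dopamine and cyclic AMP genes, 0 were called, but without the 6-month M2 3 channel genes were higher and 3 lower, and 3 of the dopamine and cyclic AMP genes were lower. Without the 6-month F1, 2 of the latter were higher. Of 14 interneuron markers 0 were called, and of 27 neuropeptides and neurotrophic factors 1, Pdyn.

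Glial genes had few calls. Apoe, the lipid carrier made mainly by astrocytes, was at 12.72, 12.59, 12.58 and 12.35 at 6 months and at 12.84, 12.82, 12.85, 12.79 and 12.81 at 12 months. The ages did not overlap, the 12-month arrays lay closer together than those of 6 months, and the log2 difference was 0.27 (SE 0.0746), or 0.19 without the 6-month M2. It was the called member both of 19 astrocyte markers and of 17 genes of ageing glia and complement. Without the 6-month M2, 4 astrocyte markers were lower and 1 higher, and without the 6-month M1 4 genes of ageing glia were higher. Gfap, the intermediate filament of reactive astrocytes, had 8.60, 8.21, 8.93 and 8.47 at 6 months and 9.13, 8.65, 8.64, 8.62 and 8.61 at 12 months, a difference of 0.18 (SE 0.151), and the complement gene C4b 0.17 (SE 0.109). Neither was called.

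In microglia 2 of 19 markers were higher, the purinergic receptor gene P2ry12 (0.19, SE 0.0833) and Selplg, an adhesion ligand (0.12, SE 0.0522). The count was 0 higher and 1 lower without the 6-month M2, and 0 also without the 6-month F2 or the 12-month F2, M2 or M3. The mean over the list was 8.40 in that array against 8.60 to 8.63 in the other 6-month arrays and 8.60 to 8.66 at 12 months. Of 28 oligodendrocyte and myelin markers 1 was higher, Aspa, which breaks down N-acetylaspartate (0.27, SE 0.0791), while the median of the list was 0.01. The count was 3 without the 6-month M1 and 2 without the 6-month F1. Irak3, which restrains signals of Toll-like receptors, had the smallest p of all probesets with 1 symbol. It was at 7.743, 7.747, 7.823 and 7.656 at 6 months and at 7.976, 8.115, 7.996, 8.161 and 8.075 at 12 months, a difference of 0.32 (SE 0.0628, unadjusted limma p 0.000412, adjusted p 0.789). Abca8a, a lipid transporter, was at 7.61 to 7.87 and 8.03 to 8.12 (0.32, SE 0.0639). For both the ages did not overlap and the call held with any 1 array left out.

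Of 19 endothelial and mural markers 1 was lower, Kdr, the main VEGF receptor of endothelium, at 7.39, 7.39, 7.23 and 7.33 at 6 months and 7.12, 7.15, 7.23, 7.18 and 7.12 at 12 months (-0.17, SE 0.0579). Histone genes had 4 of 44 lower (9.09%) and 0 higher, with a median of -0.02, and small nucleolar RNAs 4 of 54 lower and 1 higher. The direction of the small nucleolar RNAs rested on single arrays, with 8 higher and 1 lower without the 6-month F1, and 1 higher and 9 lower without the 6-month M2. The linker histone gene H1f2 was at 9.45, 9.38, 9.30 and 8.73 at 6 months, where the 6-month M2 was lowest, and at 8.67 to 8.96 at 12 months (-0.38, SE 0.138). It was -0.54 without the 6-month M2 (p 5.48e-05), and the call was lost when the 6-month F1, F2 or M1 was left out. The histone count was 1 without the 6-month F2 and 2 without the 6-month M1, the 12-month F2 or the 12-month M3, and without the 6-month M2 it was 6, with 1 higher. Of 18 glucocorticoid response genes 2 were lower, or 5 without the 6-month M2 and 0 without the 6-month M1, the 12-month M2 or the 12-month M3, and Nfkbia, the NF-kappaB inhibitor, had 8.24 to 8.30 at 6 months and 8.08 to 8.20 at 12 months (-0.13, SE 0.0537). It was lost when any of 6 single arrays was left out.

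Many sets had 0 calls in either direction with all 9 arrays. These were 12 oligodendrocyte precursor markers, 28 interferon response genes, 14 antigen presentation genes, 18 neuroblast and progenitor genes of the ventricular wall, 48 proteasome genes, 59 collagen and basement membrane genes, 19 cholesterol synthesis genes, 15 markers of thalamus, septum and hypothalamus and 5 blood cell markers. Single arrays changed this for some: 4 proteasome genes were higher without the 6-month F1, and 4 collagen and basement membrane genes without the 6-month M2. In the other sets at most 1 gene was called in either direction with any 1 array left out, apart from the thalamus, septum and hypothalamus list described above. Olfactory receptors, the odour receptors of the nose, had 31 of 1015 higher (3.05%) and 18 lower (1.77%). These counts were 20 and 27 without the 6-month F1, 49 and 12 without the 6-month M2 and 15 and 14 without the 12-month F2. These counts have no test.

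**Figure D5:**
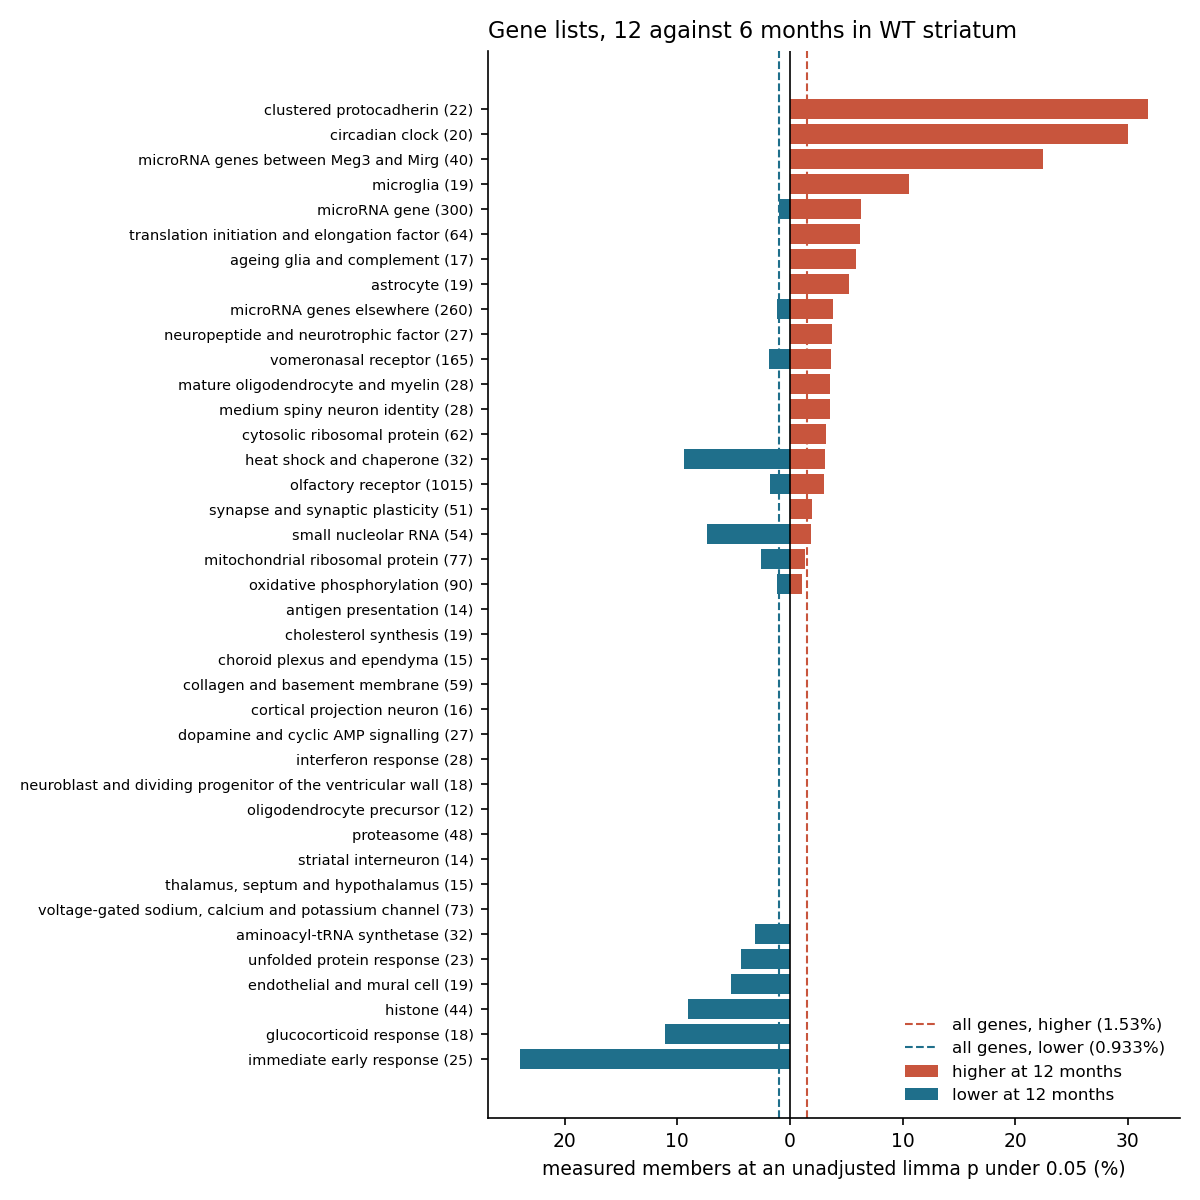
Share of the measured members of each gene list (members in brackets, lists of 12 or more) at an unadjusted limma p under 0.05, higher at 12 months to the right and lower to the left (x axis, percent), with dashed lines at the shares over all genes, 1.53% and 0.933%. Protocadherins, clock genes and the Meg3 to Mirg microRNA genes reach 31.8%, 30% and 22.5% on the right, and immediate early genes 24.0% on the left.

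Among other leading genes, Dnase1l2, a DNA-degrading enzyme, was lower, with 7.65 to 7.80 at 6 months and 7.41 to 7.52 at 12 months (-0.24, SE 0.0566), as were Abracl (-0.25, SE 0.0629) and Prrt1, which associates with AMPA receptors (-0.23, SE 0.0579). The largest difference of a called named gene was that of Depdc1a, a gene of dividing cells, at 3.75, 3.84, 3.52 and 2.77 at 6 months and 4.13, 4.73, 4.01, 4.86 and 4.32 at 12 months (0.94, SE 0.24), values that lie near the low end of the array's range, where a log2 difference has little signal behind it. Anapc5, a subunit of the anaphase promoting complex, and Hmgb2, a chromatin protein, each had 4 probesets of which 1 was called, with differences of 0.34 and -0.48, so the probesets of these genes disagreed.

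Whether females and males differed in the change was tested as the interaction of age and sex in the 9 arrays. The adjusted count was 0. At the unadjusted threshold 4794 probesets were called (13.8%), of which 3219 had the female change above the male change (9.26%) and 1575 below it (4.53%). The direction depended on scaling, with 1437 above and 3490 below when arrays were centred, and 1947 above and 1645 below after quantile normalization. It also rested on single arrays, since each sex had only 2 arrays at 6 months: the count was 10168 without the 6-month M1, 2345 without the 6-month F1, 2755 without the 6-month M2, 2618 without the 12-month F2 and 3071 without the 12-month M2. Rpe65, a retinoid isomerase, had an unadjusted p of 0.00525 for this difference. It was at 7.27 and 7.50 in 6-month females, 6.21 and 7.02 in 6-month males, 7.59 and 7.44 in 12-month females and 7.79, 7.96 and 8.04 in 12-month males. Its change was 0.13 (SE 0.231) in females and 1.32 (SE 0.211) in males, with an adjusted limma p of 0.355 for the difference.

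Whether the WT change differed from that of YAC128 mice of the same ages was tested in 18 arrays, without a sex term. Females were 1 of 4 YAC128 arrays at 6 months and 3 of 5 at 12 months, beside 2 of 4 and 2 of 5 in WT. Sex and genotype therefore cannot be fully told apart in these differences. Again the adjusted count was 0, and 1120 probesets (3.22%) were called at the unadjusted threshold, 813 with the WT change above the YAC128 change (2.34%) and 307 below (0.883%). The count was 2009 without the 6-month M2, and the direction turned with centring (470 above, 581 below). Fos had a change of -0.38 in WT and -0.33 (SE 0.101) in YAC128, Npas4 -0.76 and -0.81 (SE 0.285), and Arc -0.42 and -0.56 (SE 0.192). The values were 0.29 and 0.25 for the clock gene Nr1d1, 0.31 and 0.33 for Dbp, and 0.40 and 0.47 for the microRNA gene Mir411. For none of these pairs did the difference pass the unadjusted threshold. Aspa had a change of 0.27 in WT and -0.06 (SE 0.067) in YAC128, with a difference of 0.33 (SE 0.0947, unadjusted limma p 0.0027), the called Rpl10a probeset 0.38 and -0.02 (difference 0.40, SE 0.11), and Eif5a 0.21 and -0.02 (difference 0.23, SE 0.0899). None of these differences passed after adjustment.

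The 3 WT arrays of 18 months were set beside these values without a test. One of them, the 18-month M2, stood apart in tissue markers. Its mean over markers of thalamus, septum and hypothalamus was 8.72, against 7.51 to 8.17 in all other WT arrays. Its mean over medium spiny neuron markers was 10.56, against 10.99 and 11.03 in the other 18-month arrays. It enters every 18-month mean below, and its weight in them was not tested. The means of Fos, Npas4, Egr2 and Arc at 18 months were 7.19, 8.40, 7.54 and 9.22, beside 12-month means of 7.29, 8.27, 7.70 and 9.22. Ciart on its first probeset had a mean of 9.67 at 18 months and 9.46 at 12 months, and Nr1d1 11.15 at both ages. Irak3 had a mean of 7.74 at 6 months, 8.06 at 12 and 8.36 at 18. Gfap, not called between 6 and 12 months, had means of 8.55, 8.73 and 9.68 at the 3 ages, with the 18-month arrays at 10.21, 9.47 and 9.37.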

How the data were processed

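Striatal RNA of single mice was measured on Affymetrix Mouse Gene 1.0 ST arrays. The authors made complementary DNA from total RNA, hybridised it and deposited log2 values from robust multichip average (RMA), which corrects background, quantile normalizes and summarises probes. The RMA version is not given in the sources used here. Nothing was rescaled in the main analysis. The fits used limma 3.58.1 in R 4.3.3 (lmFit and eBayes), as 12 minus 6 months in the 9 WT arrays without covariates, with Benjamini-Hochberg adjustment over 34760 probesets. A GEO platform table named 21640 probesets by 1 symbol, 1321 by several and 11799 by none. A gene entered lists by its probeset of highest mean over the 9 arrays, and single values of genes with several probesets are per probeset. The number of arrays limits the precision, and no depth applies.

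The members and gene lists were chosen with earlier results of these data known, so list counts have no test. Named genes were the 15 of smallest p and the 10 of largest difference in each direction (placeholder symbols, olfactory and vomeronasal receptors and small RNAs left out), up to 4 members of each list by p, all immediate early and clock genes, and fixed marker checks. Genes said to be looked up after values were seen, and the Meg3 to Mirg interval, lie outside that rule. The interaction fits took age by sex in 9 arrays and the difference of the WT and YAC128 changes in 18. No scan or hybridisation dates were analysed here, so a batch shared by arrays of one age cannot be told apart from age. The fits were tested on simulated data. Alternatives were array centring, quantile normalization, a mean of at least 6, probesets with 1 symbol, a variance trend, robust eBayes, all 26 arrays, sex as a term, a replicate block and leaving out each array. Sequences came from RefSeq tables of GRCm38.p6. Replicate numbers of the titles did not pair the arrays, with correlations of the residuals of same-numbered arrays between -0.21 and -0.02.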

Additional observations from a re-analysis of the deposited data

Results flagged for a closer look

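Dixon's test was run on the array values of a part of the named genes and on list means. Single arrays that lay far from the rest of their age were found in 13 of 218 groups of arrays, where chance gives about 10.9. The other named genes are not covered by this count. Of the 13, 5 were the 6-month M2. It was highest for Neurod6, a cortical neuron transcription factor (7.62, others 5.65 to 5.86), and for the mean over choroid plexus and ependymal markers (7.89, others 7.14 to 7.25). It was lowest for Dusp1 (9.04, others at least 9.91), for Oprk1 (8.39, others 8.58 to 8.59) and for the mean over microglial markers (8.40, others 8.60 to 8.63). The 6-month M1 was highest for the first Rbm3 probeset (9.07, others 8.53 to 8.58) and for the mean over genes of ageing glia and complement (8.44, others 8.31 to 8.32). The 6-month F1 was highest for Stip1 (10.59, others 10.41 to 10.44) and, by a small step, for the mean over voltage-gated channel genes (9.03, others 9.01). At 12 months, F1 was highest for Gfap (9.13, others 8.61 to 8.65), F2 was lowest for Cirbp (9.16, others 9.31 to 9.34) and highest for the mean over microRNA genes (6.55, others 6.45 to 6.47), and M1 was lowest for Aspa (8.94, others 9.07 to 9.11).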

How the results depend on the processing

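The absence of adjusted calls for 12 against 6 months held under centring, quantile normalization, the filter on a mean of at least 6, probesets with 1 symbol, the variance trend, robust eBayes, all 26 arrays, sex as a term and the replicate block. With 1 array left out the adjusted count was 0 to 1 (1 without the 6-month M2 or the 12-month M2). The unadjusted count ran from 1207 to 2384 with 1 array left out (2384 without the 6-month F1), with 800 to 1656 higher, 388 to 881 lower (881 without the 6-month M2) and 388 to 1057 gene symbols with a called probeset, against 550 as reported. Probesets with 1 symbol alone gave 746, with 471 higher and 275 lower, in a fit whose variance prior came from these probesets alone. Quantile normalization gave 910 lower.

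The replicate block, though the numbers do not pair the arrays, leaves the 12-month M3 without weight, since it has no partner, and gave 967 probesets, 653 higher and 314 lower, and 180 gene symbols. It ended the call of 45 named probesets. For WT against YAC128 it gave 1513.

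Age by sex gave, centred, 1437 with the female change above and 3490 below, and 1947 above after quantile normalization. With 1 array left out the count was 2345 to 10168 (above 1466 to 5851, below 879 to 4317, adjusted 0 to 1, the 1 without the 12-month F1). It was 2755 without the 6-month M2, 2618 without the 12-month F2 and 3071 without the 12-month M2. The WT minus YAC128 change gave 470 above and 581 below when centred, 518 and 687 after quantile normalization, and 889 to 2009 with 1 array left out (591 to 1402 above, 275 to 607 below, highest without the 6-month M2).

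Of 105 called named probesets, 65 kept an unadjusted p under 0.05 with any 1 array left out, and no called value changed its sign under these alternatives. The causes of these shifts were not tested. With 4 and 5 arrays and a median SE of 0.08, differences of the median size over genes (0.05) were below what these arrays resolve.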
